A study of Arabidopsis thaliana with 5 samples.

Results

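The type I lipid transfer protein (LTP) genes of Arabidopsis thaliana described here are LTP1 to LTP6 and LTP12, 7 genes chosen by locus out of 25383 loci that had a probe on the array. LTP1 is AT2G38540, LTP2 AT2G38530, LTP3 AT5G59320, LTP4 AT5G59310, LTP5 AT3G51600, LTP6 AT3G08770 and LTP12 AT3G51590; RefSeq lists LTP1 under the symbol LP1. Transcripts were measured in whole 12-day-old seedlings of the Atino80-5 mutant, on 3 arrays, and of wild type, on 2 arrays. The mutant is named for INO80, the ATPase of a chromatin remodelling complex, and the comparison asked which transcripts differed between the genotypes. No treatment beyond growth on MS medium under long days is labelled for either genotype, and the labels name neither the nature of the mutation nor the accession it was made in. The labels do not say that arrays came from separately grown seedlings, so SEs and p-values here rest on array-to-array spread that may be technical in origin. Each SE is moderated: the feature's own spread is drawn toward that of all probes or genes in the fit.

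Type I LTPs are small basic proteins that are secreted to the cell wall, where conserved disulfide bonds hold a fold with a hydrophobic cavity that binds fatty acids and phospholipids in vitro. In leaves and stems they are abundant in the epidermis and have been linked to the cuticle, the layer of wax and cutin on the plant surface, and to defence. LTP1 and LTP2 lie side by side on chromosome 2, LTP3 and LTP4 on chromosome 5, and LTP5 and LTP12 on chromosome 3, where LTP6 stands alone at another place. LTP3 and LTP4 are known as genes induced by abscisic acid (ABA) and drought, LTP1 is known from the epidermis, and LTP12 from the tapetum, the nutritive layer of the anther.

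The family was taken up because LTP4 and LTP3 were already known, from these same arrays, to be far lower in Atino80-5. The members' values are therefore given as a description, with the fitted change and its standard error (SE) and with no p-value. Signals are the scanner's processed intensities; changes are Atino80-5 minus wild type in log2 of the signal after each array was scaled to its 75th percentile. The 7 genes had 14 probes, of which 13, from 6 genes, passed the filter, which asked for a signal well above background on any 2 or more of the 5 arrays. The remaining probe was the only probe of LTP12. Signals of different probes are not comparable as transcript levels, so no order of abundance among the genes is given.

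Each array had 77.3% to 81.6% of its 43603 probes well above background, and Pearson's r across probes was 0.9812 to 0.9829 between genotypes and 0.9957 to 0.9967 within them. Atino80-5 arrays 1 and 2 and both wild type arrays shared a slide, and Atino80-5 array 3 was on slide 2. The INO80 probe A_84_P20358 gave 62.2, 55.0 and 62.9 in Atino80-5, against 9438 and 9289 in wild type, while A_84_P835513 gave 504, 484 and 490 in Atino80-5 and 132 and 124 in wild type. Both probes thus separated the labelled genotypes, but in opposite directions: the first was lower and the second higher in Atino80-5. The position of the probes with respect to the mutation was not available.

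Of the 13 probes, 7 were called higher and 3 lower in the limma fit over all probes, and 3 were not called; over all 35204 probes tested, 55.6% were called, 28.9% as higher and 26.7% as lower. The contrast was known when the genes were chosen, and nothing is read from this count. The 3 probes called lower were those of LTP4 and LTP3. Those called higher were both probes of LTP2, all 3 of LTP6, the probe of LTP5 and 1 of the 4 of LTP1. The number called higher was 5 with median scaling, with the replicate number as a block and without wild type array 1, and 9 with quantile normalization and in the authors' deposited value table, while the number called lower was 3 in each alternative run. The genotypes' arrays did not overlap for 11 of the 13 probes, against 74.0% of all probes tested. The 3 probes of LTP4 and LTP3 were past a 2-fold change, as were 6.45% of all probes in either direction. All 3 were at least 8-fold lower, as were 0.173% of all probes. With the background corrected by the normexp method, the LTP3 probe A_84_P20704 had a log2 change of -2.92, short of 8-fold. Both genes were taken up because they were known to be far lower on these arrays, so nothing is read from these shares.

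**Figure D1:**
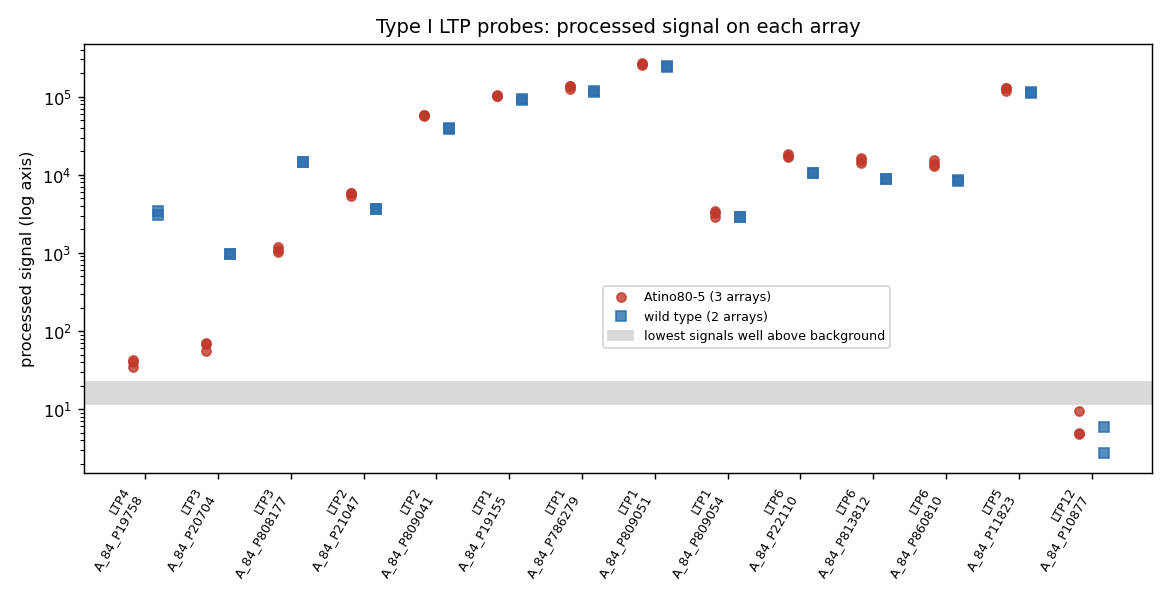
Processed signal (log axis) of the 14 type I LTP probes on each of the 3 Atino80-5 arrays (circles) and 2 wild type arrays (squares); the grey band spans the lowest signals that counted as well above background on the 5 arrays. The probes of LTP4 and LTP3 are the ones far lower in Atino80-5, and LTP12 lies below the band on every array.

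LTP4 had the largest difference of the family. Its probe A_84_P19758 gave processed signals of 42.0, 39.997 and 34.2 on the 3 Atino80-5 arrays, against 3445 and 3053 on the wild type arrays. The 3 mutant values lay close together, far below both wild type values. The log2 change was -6.44 ± 0.14 (SE, 3 and 2 arrays), or 86.8-fold lower in Atino80-5, and it ranked 2 from the lowest among the 35204 probes. The mutant signals were well above background on all 3 arrays but near its limit, since the lowest signal that passed there was 13.4, 11.8 and 22.4. Correcting the background by the normexp method made the log2 change -4.997.

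LTP3, next to LTP4 on the chromosome, was lower by both of its probes. The brighter, A_84_P808177, gave 1037, 1087 and 1174 in Atino80-5, against 14732 and 14395 in wild type. The dimmer, A_84_P20704, gave 56.2, 67.8 and 71.3 in Atino80-5 and 958 on each of the wild type arrays. On both probes every mutant array was below every wild type array by an order of magnitude. The log2 changes were -3.78 ± 0.036 and -3.93 ± 0.083, which correspond to 13.7-fold and 15.3-fold lower levels in Atino80-5. The probes differed by 0.16 on the log2 scale although their signals differed widely. With normexp background correction the dimmer probe gave -2.92 and the brighter -3.72. LTP3 remained clearly detected in the mutant on its brighter probe, while the fitted reduction of LTP4 was larger. LTP3 and LTP4 are close copies, probe sequences were not used here, and whether either gene's probes also bind the other transcript was not tested.

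LTP2, which has been linked to cuticle integrity in etiolated hypocotyls, was higher in Atino80-5 by both probes. A_84_P809041 gave 57063, 58229 and 59027 in Atino80-5, against 39672 and 38752 in wild type. A_84_P21047 gave 5278, 5925 and 5820 in Atino80-5, against 3654 and 3615 in wild type. The genotypes were separated on each probe, and the mutant arrays differed from each other by less than they differed from wild type. The changes were 1.43-fold (log2 0.52 ± 0.032) and 1.51-fold (log2 0.59 ± 0.044).

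LTP1, the neighbour of LTP2, showed no comparable difference. Its brightest probe, A_84_P809051, gave 256758, 265498 and 266114 in Atino80-5, against 248966 and 240385 in wild type. A_84_P786279 gave 126512, 135014 and 137716 in Atino80-5, against 114625 and 117185 in wild type. Before scaling, the mutant arrays read a little higher on both. The arrays of A_84_P19155 gave 100563, 105745 and 102375 in Atino80-5 and 93223 and 90853 in wild type. The dimmest probe, A_84_P809054, gave 2879, 3213 and 3419 in Atino80-5, against 2885 and 2913 in wild type. After scaling, the genotypes overlapped on A_84_P809051 and A_84_P809054 and were separated on the other pair. The log2 changes of the 4 probes ran between 0.06 and 0.15, with SEs of 0.030 to 0.052, so the largest corresponds to 1.11-fold. The direction of the brightest probe was not stable: with each array scaled by its median its change was -0.00063, against 0.06 with the 75th percentile.

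LTP6 was higher in Atino80-5 on all of its probes. A_84_P22110 gave 16786, 17601 and 18451 in Atino80-5, against 10581 and 10573 in wild type. A_84_P813812 gave 14052, 15554 and 16182 in Atino80-5 and 8874 and 8726 in wild type. A_84_P860810 gave 13082, 13848 and 15647 in Atino80-5, against 8452 and 8237 in wild type. Each mutant value exceeded each wild type value of the same probe. The changes were 1.61-fold, 1.68-fold and 1.64-fold, with log2 values of 0.69 ± 0.027, 0.75 ± 0.043 and 0.72 ± 0.056, and the probes of LTP6 thus differed among themselves by 0.057 on the log2 scale.

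LTP5, known from pistil and pollen tube growth as well as from other organs, differed little. Its single probe A_84_P11823 gave 119549, 129997 and 128905 in Atino80-5, against 111199 and 114103 in wild type. The scaled values did not overlap, and the change was 1.08-fold (log2 0.12 ± 0.036). The size depended on the scaling: the change was 0.059 with median scaling and 0.20 when fitted on the authors' deposited value table.

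LTP12 was not detected in either genotype. Its probe A_84_P10877 gave 9.42, 4.98 and 4.87 in Atino80-5 and 5.96 and 2.72 in wild type, and none of the 5 arrays was well above background. No fold is given for it. Among 8 anther and tapetum markers, 6 did not pass the filter on dim probes, and the others, AMS and AT5G07230, gave summed signals of 41.5 to 61.2 in Atino80-5 and 41.2 to 55.6 in wild type and were not called.

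**Figure D2:**
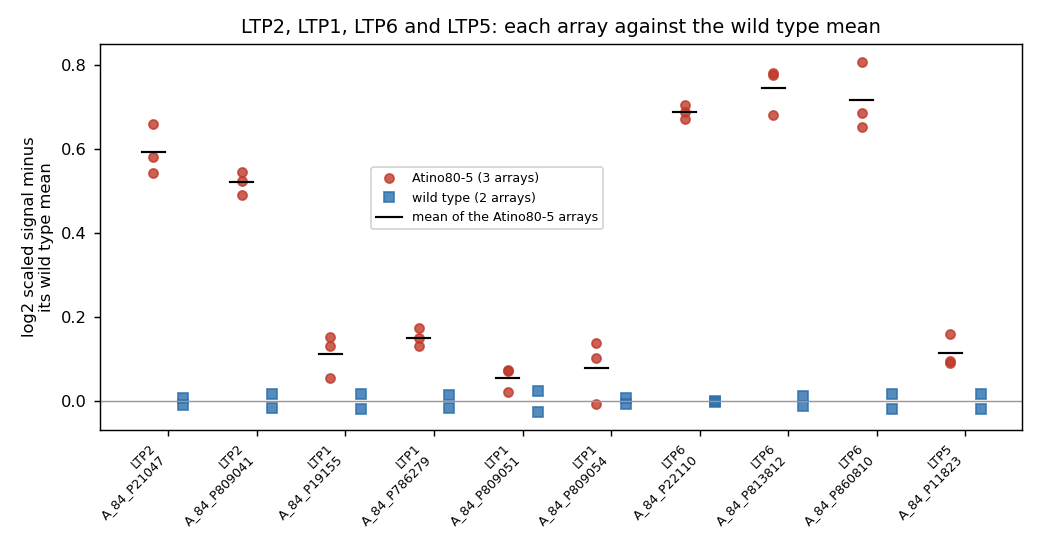
Log2 scaled signal of each array minus the wild type mean of the same probe, for the probes of LTP2, LTP1, LTP6 and LTP5; circles are the 3 Atino80-5 arrays, squares the 2 wild type arrays, and bars the mean of the Atino80-5 arrays. LTP2 and LTP6 lie between 0.52 and 0.75 on average, LTP1 and LTP5 between 0.06 and 0.15.

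By fitted change, LTP4 and LTP3 were 13.7-fold to 86.8-fold lower in Atino80-5. With normexp background correction their log2 changes were -4.997 for LTP4 and -2.92 and -3.72 for LTP3. LTP2 and LTP6 were 1.43-fold to 1.68-fold higher, and LTP1 and LTP5 were within 1.11-fold of wild type. The median over the 13 probes was 0.12 on the log2 scale, against -0.0038 over all probes tested. In both adjacent pairs that were measured in full, the genes were not alike in size: LTP2 exceeded LTP1 in change, and LTP4 exceeded LTP3. Within slide 1 alone, with the slide as a block, the changes were -6.33 for LTP4, -3.80 and -3.98 for LTP3, 0.54 and 0.60 for LTP2, 0.67 to 0.73 for LTP6, 0.13 for LTP5 and 0.048 to 0.15 for LTP1. Whole seedlings were sampled, so fewer cells of a type and less RNA per cell cannot be told apart for any of these genes.

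Epidermal markers, taken as a check of the tissue in which LTP1 is best known, were present at similar levels. The summed signal of 6 markers before scaling was 166007 to 175533 in Atino80-5, against 160048 to 162105 in wild type. PDF2, a homeodomain regulator of the epidermis, was called higher by 0.13 ± 0.034 (adjusted p = 0.031, limma), and its call was lost with median scaling and in 7 of the other alternatives. The other epidermal markers, ATML1, PDF1, FDH, ACR4 and CER6, were not called, and 0 were lower, also 0 at an unadjusted p under 0.05; of the 4 other probes of PDF1, 1 was called higher. Over all genes 30.5% were called higher and 26.7% lower. Of 6 leaf markers 1, LHCB2.1, was called higher and 5 were not called on the brightest probe of each, with 0 lower, also 0 at an unadjusted p under 0.05. Other probes of the leaf markers differed from this: all 4 of PSAD1 were called lower, with changes of -0.38 to -0.27, as were 5 of 8 of RCA. With the probes of a gene averaged, PSAD1 (-0.28) and RCA (-0.21) were called lower and LHCB2.1 (0.010) was not called. All 8 root markers were measured: 7 were called higher and 1, SCR, lower (-0.12 ± 0.031), with a median of 0.99. Their summed signals before scaling were 12349 to 13166 in Atino80-5 and 10198 to 10457 in wild type. SCR made up the largest part of these sums. With normexp background correction EXPA7 went from 1.005 to 0.85, EXPA18 from 1.25 to 0.90 and PLT2 from 1.09 to 0.49. CASP1 was at 0.97 without it and at 0.98 with it. PLT1 was well above background on 1 of the 2 wild type arrays. The part of these shifts in the LTP values was not tested.

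The genes on either side of the LTP loci went in both directions. Of the 24 genes annotated within 3 places of a member, 16 were measured; 4 of these were called higher, 5 lower and 7 not called, against 57.2% called over the 26658 genes and unnamed transcripts tested (30.5% higher, 26.7% lower). Directly before LTP4, AT5G59305 was called higher in Atino80-5 (adjusted p = 0.0053, limma), in a fit that used wild type signals below background. No wild type array was well above background, so only a bound of at least 1.73-fold higher is given, to which that p does not apply. Directly after LTP3, AT5G59330 fell by 0.68 ± 0.094 on the log2 scale (adjusted p = 0.0040), with mean signals of 122 in Atino80-5 and 189 in wild type. WOX2, the homeobox gene after it, rose by 0.39 ± 0.047 (adjusted p = 0.0024). UBC7 and UXS3, on the LTP4 side, were not called, with changes of -0.10 and 0.13.

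Of the measured neighbours of LTP2 and LTP1, AT2G38500 rose by 1.47 ± 0.024 (adjusted p = 2.4e-05) and 3 were not called; AT2G38550, directly after LTP1, had a change of 0.070, close to the 0.06 of the brightest LTP1 probe. ATSIK, a kinase gene directly before LTP6, fell by 0.28 ± 0.040 (adjusted p = 0.0042), and SIEL, 3 places after it, rose by 1.05 ± 0.031 (adjusted p = 5.8e-05). LTP6 itself was higher by 0.69 on its brightest probe. Beside LTP12 and LTP5, AT3G51580 fell by 0.20 ± 0.031 (adjusted p = 0.0052) and AT3G51620 by 0.24 ± 0.038 (adjusted p = 0.0058), while LTP5 was higher by 0.12. A wider window of 10 protein-coding genes on each side was chosen after the data were seen. There 5 neighbours of LTP4 and LTP3 were higher, 5 lower and 7 not called, against 57.2% called over all genes (30.5% higher, 26.7% lower). Apart from AT5G59305, for which only the bound above is known, their changes lay between -2.04 and 1.68. The lowest was HAI1, a protein phosphatase gene of the ABA response at the far end of the window. With the same width the lowest change was -2.31 around LTP6 and -0.45 around LTP12 and LTP5. Around LTP2 and LTP1 the lowest was -2.37, for a gene that was not called.

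**Figure D3:**
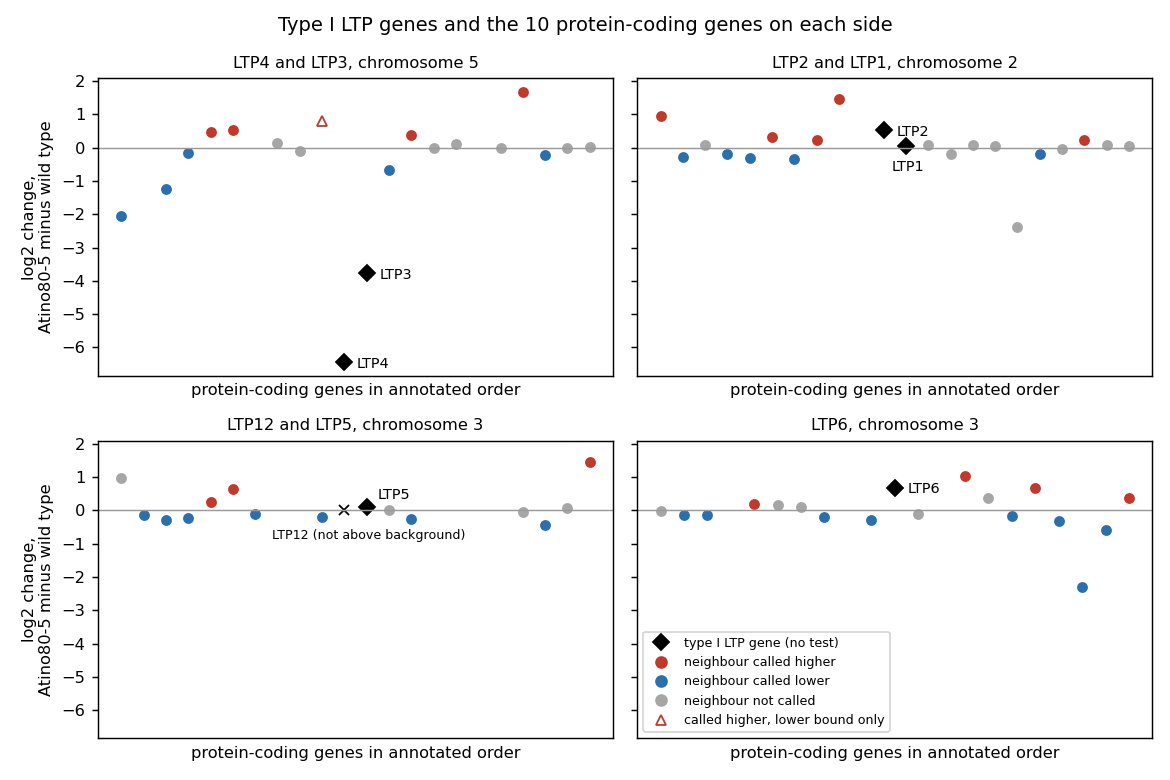
Log2 change (Atino80-5 minus wild type) of the type I LTP genes (diamonds) and of the 10 protein-coding genes on each side in annotated order (circles, coloured by call; the open triangle is the lower bound for AT5G59305); each gene is represented by its brightest probe, unmeasured genes are left blank, and a cross marks the place of LTP12, which has no measured change. LTP4 and LTP3 lie at -6.44 and -3.78 among measured neighbours between -2.04 and 1.68.

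The genes nearest to LTP4 and LTP3 in profile were found by the root mean square difference, over the 5 arrays, of the scaled log2 values after the wild type mean was subtracted. Nearest to LTP4 was HDA2, a histone deacetylase gene, at 0.40, and INO80 followed at 0.71. HDA2 gave 47.6, 49.3 and 47.3 in Atino80-5, against 2850 and 2847 in wild type. AT5G47590 was also among the 3 nearest, but in the mutant it was not well above background on any array, so its distance is not known and its level was at least 42.4-fold lower. Nearest to LTP3 were GLR1.3, a glutamate receptor-like gene, at 0.078 and AT5G39520 at 0.11. AT1G04570 was ranked with them on mutant signals of which none was well above background, and it was at least 10.1-fold lower. GLR1.3 gave 33.1, 34.2 and 38.8 in Atino80-5, against 431 and 450 in wild type. The mutant signals of HDA2, INO80, GLR1.3 and AT5G39520 were well above background but low. Their distances may therefore depend on the background correction, and were not computed with normexp. These genes were chosen for their likeness, so the ranking is a description.

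Other loci of the wider LTP family were taken from a list of 8. Only 4 passed the filter on dim probes, with changes between -0.30 and 0.79; 1 was higher, 1 lower and 2 not called, against 30.5% higher and 26.7% lower over all genes, and the median was -0.0057, against 0.0045. AT2G18370 rose by 0.79 ± 0.031 (adjusted p = 0.00010), close in size to LTP6, and AT5G01870 fell by 0.30 ± 0.037 (adjusted p = 0.0027). LTP7 was not called on its brighter probe (0.11 ± 0.043), while its other probe, A_84_P602422, was higher by 0.55 ± 0.047. AT5G62065 was not called (-0.13 ± 0.079). Among the 11 measured genes of glycosylphosphatidylinositol-anchored LTPs and related proteins with the same cysteine pattern, 4 were higher, 4 lower and 3 not called, with a median of 0.031. AT4G12490 fell by 1.76 ± 0.039 (adjusted p = 3.3e-05), and AT4G12510, from the same chromosomal cluster of close copies that may share signal, rose by 1.04 ± 0.059 (adjusted p = 0.00027). AZI1 (-0.26), EARLI1 (-0.42) and AT4G12500 (-0.69), of the same cluster, were also called lower. All 4 lower calls of this list thus came from that cluster. DIR1, a lipid transfer protein of systemic resistance, rose by 0.40 ± 0.030 (adjusted p = 0.00056), and LTPG5 rose by 0.55 ± 0.029 (adjusted p = 0.00022). All of these were smaller in size than the change of LTP3, a gene taken up because it was known to be far lower.

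MYB96, a transcription factor of the cuticle that is known to bind the LTP3 promoter and activate the gene in drought and cold, gave 13477, 14163 and 15123 in Atino80-5, against 7129 and 7004 in wild type. It rose 1.95-fold (log2 0.96 ± 0.032, adjusted p = 7.0e-05) on the same arrays on which LTP3 was 13.7-fold lower. The part of MYB96 in the LTP3 values was not tested. Of the cuticle regulators 4 of the 12 measured rose, 5 fell and 3 were not called, against 30.5% higher and 26.7% lower over all genes, with a median of 0.013. The count that rose was 2 without either wild type array, without Atino80-5 array 1 or without Atino80-5 array 3. The epidermal regulator HDG1 fell by 0.41 ± 0.029 (adjusted p = 0.00049), SHN2 by 0.38 ± 0.048 (adjusted p = 0.0030) and MYB16 by 0.20 ± 0.025 (adjusted p = 0.0028).

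Among genes of ABA and drought response, the condition in which LTP3 and LTP4 are known to be induced, 12 of the 20 fell, 3 rose and 5 were not called, against 26.7% lower and 30.5% higher over all genes. Their median was -0.32, against 0.0045 over all genes. The dehydrin gene RAB18 fell 4.84-fold (log2 change -2.27 ± 0.037, adjusted p = 2.4e-05), COR15A 4.61-fold (-2.20 ± 0.031, adjusted p = 2.3e-05), and the phosphatase genes HAI1 4.11-fold (-2.04 ± 0.054, adjusted p = 4.6e-05) and HAI2 5.34-fold (-2.42 ± 0.085, adjusted p = 8.3e-05). These were the 4 genes of the list with the smallest p. RD29A fell by 0.30, while KIN1 (0.18), KIN2 (0.22) and ABF3 (0.27) rose. COR47, ABI2, RD22, RD26 and ABF4 were not called. The other probes of RAB18 gave -2.51 to -0.91. With normexp background correction HAI1 was at -1.51 and HAI2 at -1.48. The changes of LTP4 and of both LTP3 probes were lower than the lowest of the list, -2.47. LTP4 and LTP3 were taken up because they were far lower, so nothing is read from this order.

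Wax and cutin genes, whose products build the cuticle that LTPs are linked to, were called at close to the share of all genes. In this list 9 of the 29 rose, 6 fell and 14 were not called, against 57.2% called over all genes (30.5% higher, 26.7% lower), with a median of 0.015. CER4, for wax alcohol synthesis, rose by 1.41 ± 0.080 (adjusted p = 0.00027), or by 0.90 with normexp background correction, and the transporter gene ABCG32 by 0.65 ± 0.034 (adjusted p = 0.00021). CER1, for alkane synthesis, fell by 0.98 ± 0.040 (adjusted p = 0.00011) and the wax ester synthase gene WSD1 by 0.76 ± 0.044 (adjusted p = 0.00028); the other CER1 probe gave -1.41, and WSD1 was at -0.46 with normexp. Suberin genes, active mostly in root endodermis, were higher in 8 of 9 cases, against 30.5% of all genes, with 0 lower (0 also at an unadjusted p under 0.05), against 26.7%, and a median of 0.67. CYP86A1 rose by 1.2002 ± 0.041 (adjusted p = 7.7e-05), FAR5 by 0.96 ± 0.035 (adjusted p = 9.1e-05), GPAT5 by 0.85 ± 0.027 (adjusted p = 6.4e-05) and ABCG20 by 0.65 ± 0.026 (adjusted p = 0.00011). On the same arrays the 8 root markers had a median of 0.99, and their part in the suberin values was not tested.

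**Figure D4:**
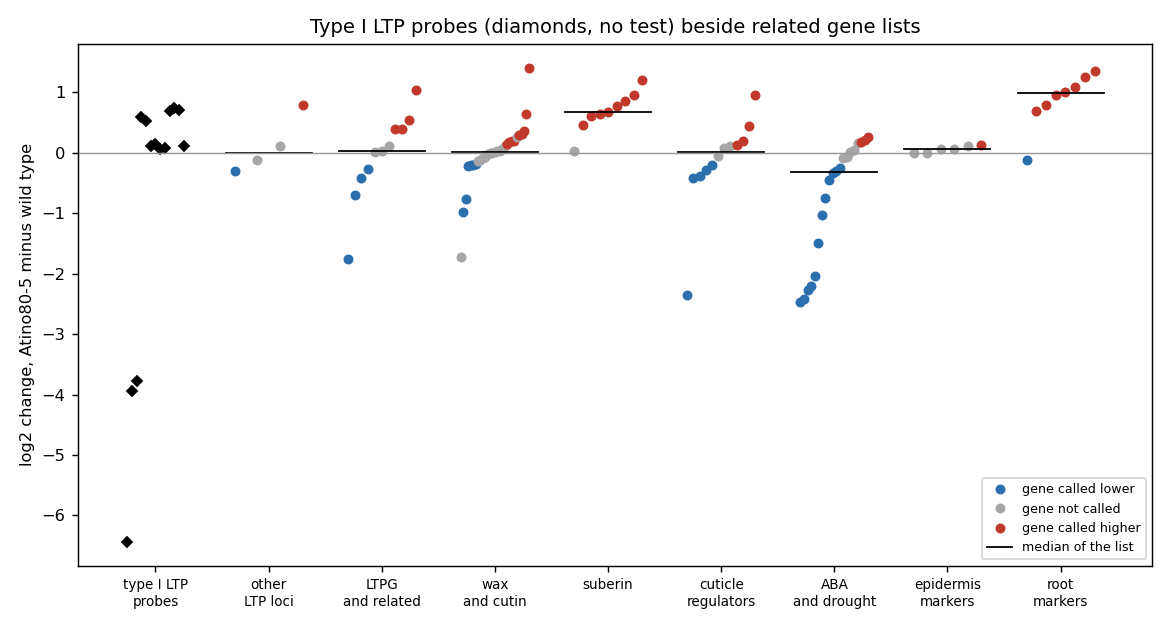
Log2 change (Atino80-5 minus wild type) of the 13 measured type I LTP probes (diamonds) beside the measured genes of related lists (circles, coloured by call; bars are list medians). LTP4 and LTP3, taken up because they were far lower, lie below every gene of these lists. The lowest gene of the ABA and drought list is at -2.47.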

How the data were processed

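Per the file headers, each array's processed intensity was made by the authors with Agilent Feature Extraction 10.7.3.1 (protocol GE1_107_Sep09), within the array; the submitters' processing notes give version 9.1. The statistics block of the headers lists spatial detrending and the joining of 2 scans for bright spots. The authors' deposited value table holds log2 values whose columns share a 75th percentile of 12.15 and correlate with the log2 processed signal at 0.9994 or more; it was read as quantile normalized and served as an alternative. Its medians were 9.6216, 9.6213 and 9.6213 for Atino80-5 and 9.6208 and 9.6213 for wild type; each column is a single sample, so it has no direction of its own, and it is not centred per gene.

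The 1417 control spots and 7 to 14 outlier-flagged spots per array were left out. None of the probe spots was saturated. Each log2 signal was scaled by each array's 75th percentile, and spots of a probe were averaged. Probes well above background on at least 2 arrays were kept (35204). Accessions were matched to the RefSeq gene table of TAIR10.1, used for names and gene order only; 34285 probes matched 1 locus and 9318 none. The array's design names another build, so no coordinates are given. Members were fitted as probes. Lists and neighbours were fitted as genes, each represented by its brightest kept probe. limma 3.58.1 in R 4.3.3 (lmFit, eBayes) was used with 3 residual degrees of freedom, Benjamini-Hochberg adjustment over all features, and a threshold of 0.05. The code was run on simulated arrays with independent noise and a small share of changed probes. That setting differs from these arrays, so the run does not show how reliable the calls are. The number of arrays limits the precision. An "at least" fold sets the brighter genotype's mean against the mean, per array, of the probe's own signal or the lowest signal well above background, whichever was higher. Sequences were not compared.

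The members and lists were chosen with earlier results of these data known. From each list up to 4 genes with the smallest p were to be named, with INO80, the neighbours and the nearest profiles; other genes were named after their values were seen. The files hold no mean spot signal, so normexp used the median signal (offset 50). The alternatives were normexp, quantile and median scaling, other filters, a trended and robust eBayes, slide and replicate blocks, averaging the probes of each gene, a 2-fold minimum, the authors' table, and leaving out each array.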

Additional observations from a re-analysis of the deposited data

How the results depend on the processing

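Over 14 alternatives the log2 change of LTP4 ran from -6.53 to -4.997, those of LTP3 from -4.01 to -2.92, of LTP2 from 0.46 to 0.62 and of LTP6 from 0.63 to 0.78. The change of LTP5 ran from 0.059 to 0.20. LTP1's probes ran from -0.00063 to 0.25, with the sign change on A_84_P809051 under median scaling. Median scaling moved the median of all probes by -0.057 and gave 8424 probes higher and 12085 lower, a share of 41.1% higher where the 75th percentile gave 52.0%. A 2-fold minimum left 2269 probes (1428 higher, 841 lower) and 1916 genes (1215 and 701). The cuticle regulators called higher were 2 with median scaling, with no filter and with the slide as a block, 1 with the replicate block, and 2 to 3 when an array was left out. Wax and cutin genes called lower were 10 with the trended and robust eBayes. ABA and drought genes called higher were 1 with the replicate block. Of the other LTP loci, 2 were higher with normexp, quantile normalization, no filter, the trended and robust eBayes, the authors' table and the mean of probes, and 2 were lower with quantile normalization and in the authors' table. The replicate block called 14290 probes. Deviations of same-numbered arrays from their genotype means correlated at r = 0.041 and 0.016. The deviations of the 2 wild type arrays mirror each other, so these values cannot decide whether same-numbered arrays were handled together. Without a wild type array its spread rests on the Atino80-5 arrays, and INO80 as a gene, then represented by its other probe, had a change of up to 1.95. Causes were not tested.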
